A study of Mus musculus with 8 samples.

Results

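The collagen genes of the mouse kidney were taken as all rows of the deposited gene table whose symbol is Col, a number, the letter a and a number, which gave 43 of 23504 rows. They cover the fibrillar class (11 genes), the type IV network (6), the type VI beaded filaments (6), the fibril-associated FACIT class (9), the multiplexins (2), the anchoring fibril collagen (1), the short-chain networks (3), the transmembrane class (4) and Col28a1. RNA came from hand-dissected outer cortex of kidneys of C57Bl6/J mice, wild type in genotype, that ate a high fat diet (libraries A, B, F and G) or a control diet (libraries I, J, L and M). Both groups began their diet at 6 weeks of age and stayed on it for 9 weeks, so they were 15 weeks old, and the stated purpose was to find genes that differ between the diets. The composition of the diets is not stated, and nothing in the labels ties a library to a mouse of its own, so each p-value speaks for the spread among the libraries alone.

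Collagens are secreted proteins in which 3 chains wind into a triple helix. Fibrillar collagens build the cables of the interstitium and vessel walls, whereas type IV collagen forms the sheet-like network of basement membranes, on which tubular cells, endothelium and podocytes rest. In the kidney the α3, α4 and α5 chains of type IV collagen form the network of the mature glomerular basement membrane, and interstitial deposition of fibrillar collagen is a hallmark of renal fibrosis.

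Total expected counts ran from 23503593 to 30781585 per library. Rn45s, the ribosomal RNA precursor, took 50.35% of the counts in control J and 1.228% to 13.33% in the other 7 libraries. It was left out of library sizes except in an alternative fit that kept it. Collagens made up 0.1768% to 0.2136% of the remaining counts. Markers of proximal tubule were abundant, with summed CPM (counts per 1000000) of 41012 to 46213 on the high fat diet and 35364 to 41954 on the control diet, whereas 6 fat markers together reached 0.932 CPM at most on the high fat diet and 1.68 CPM on the control diet. None of these 6 genes was at 0 in every library. In bulk tissue, fewer cells of a type and less RNA per cell cannot be told apart.

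Promoter sequence is shown for 3 fibrillar genes, the 2 that rose on the high fat diet and have an entry and the classical interstitial gene Col3a1 beside them, because the letters before their starts differ plainly. Each line holds the 250 bases before the RefSeq start on the gene's own strand (RefSeq, GRCm38.p6), at chr4:63215162-63215411 on the plus strand for Col27a1 (inside the wider GENCODE bounds of that gene), chr9:20815068-20815317 on the minus strand for Col5a3 and chr1:45311288-45311537 on the plus strand for Col3a1. Capitals mark the TATA box letters TATAAA, the box known as CCAAT and the GC box letters GGGCGG, on either strand. None of these 3 motifs overlaps another in the lines shown.
Col27a1: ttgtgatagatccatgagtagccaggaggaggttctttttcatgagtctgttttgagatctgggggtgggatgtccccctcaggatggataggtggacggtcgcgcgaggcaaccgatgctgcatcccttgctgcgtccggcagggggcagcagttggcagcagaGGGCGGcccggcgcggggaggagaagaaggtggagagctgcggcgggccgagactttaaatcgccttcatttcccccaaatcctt
Col5a3: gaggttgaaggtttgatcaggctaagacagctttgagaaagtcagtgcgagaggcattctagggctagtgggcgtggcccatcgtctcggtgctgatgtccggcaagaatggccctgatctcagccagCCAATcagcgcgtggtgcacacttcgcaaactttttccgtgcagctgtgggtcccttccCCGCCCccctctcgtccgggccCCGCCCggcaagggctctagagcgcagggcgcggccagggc
Col3a1: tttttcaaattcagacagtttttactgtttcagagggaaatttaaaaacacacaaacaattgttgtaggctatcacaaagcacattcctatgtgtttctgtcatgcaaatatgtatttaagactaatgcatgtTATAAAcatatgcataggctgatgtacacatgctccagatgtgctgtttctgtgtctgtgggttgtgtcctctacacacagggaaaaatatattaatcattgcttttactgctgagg

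The window of Col27a1 was 59.6% G or C and held 1 GGGCGG box, 85 bases before the start. That of Col5a3 was 62.8% G or C, with 1 CCAAT box at 122 bases and GGGCGG boxes on the opposite strand at 63 and 41 bases. That of Col3a1 was 35.2% G or C and held 1 TATAAA at 117 bases. Of the 43 collagens, 35 had a promoter entry. GGGCGG stood in 21 of these 35 windows (60%), against 32.94% of 27025 promoters of the same length, CCAAT in 12 (34.29%, against 34.46%) and TATAAA in 5 (14.29%, against 12.97%). The median content of G and C was 59.6% in collagen windows and 52% in all. A match is a description of letters and not evidence that a factor binds.

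Type IV collagen was the most abundant collagen mRNA of the cortex on both diets. Levels were compared between genes as FPKM (fragments per kilobase of transcript and per 1000000 fragments) rescaled to sum to 1000000 per library without Rn45s. Col4a1, the common basement membrane chain, averaged 100.9 FPKM over the 8 libraries. Col4a3, Col4a4 and Col4a2 followed at 91.4, 73.6 and 63.2 FPKM, and Col18a1, the precursor of endostatin, at 53.8 FPKM. The 6 type IV genes held 59.7% to 63.6% of collagen FPKM in high fat libraries and 59.1% to 65.2% in control libraries, and the 11 fibrillar genes 14.5% to 16.3% in high fat libraries and 12.3% to 16.04% in control libraries. The ranges of the diets overlapped for both classes.

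Below Col18a1 came Col27a1, Col14a1, Col4a5, Col1a2, Col3a1, Col5a2 and Col6a1 in order of mean FPKM. Among these first 12 genes, Col18a1 and Col27a1 were the only neighbours in the order whose ranges over the 8 libraries did not overlap, 45.4 FPKM being the lowest Col18a1 value and 44.9 FPKM the highest Col27a1 value. Further down, the ranges of Col12a1 and Col10a1 and those of Col9a3 and Col22a1 did not overlap either. Of the classical interstitial genes, Col1a2, the α2 chain of type I collagen, averaged 16.4 ± 2.62 FPKM on the high fat diet and 15.0 ± 1.59 FPKM on the control diet (SD, n = 4 each). Col1a1, the α1 chain, averaged 5.31 ± 1.06 FPKM on the high fat diet and 4.28 ± 0.419 FPKM on the control diet (SD, n = 4 each).

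**Figure D1:**
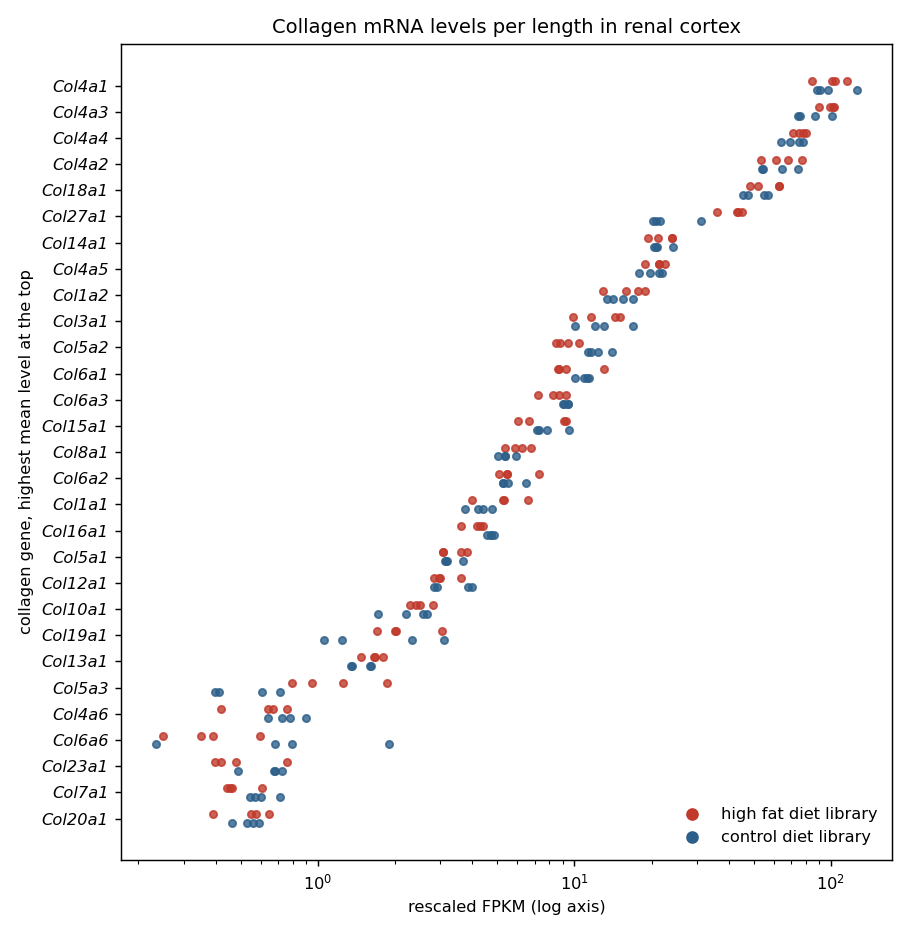
Rescaled FPKM (log axis) of the collagen genes with a mean of at least 0.5, one point per library, high fat diet in red above and control diet in blue below on each line, highest mean level at the top. Col4a1, Col4a3, Col4a4 and Col4a2 lead the order, and the points of Col27a1, Col5a2, Col5a3 and Col16a1 separate by diet.

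The test used edgeR's quasi-likelihood method on rounded expected counts with Benjamini-Hochberg adjustment over 14711 genes, and a gene was called at an adjusted p under 0.05. It called 3 of the 35 collagens that passed the filter on low counts (8.57%), against 9.99% of all genes tested, so the share of collagens called lay near the background. All 3 were fibrillar: Col27a1 and Col5a3 rose (4.86% of all genes tested did) and Col5a2 fell (5.13% did). An unadjusted p under 0.05 was reached by 9 of the 35 (25.7%), against 27.4% of all genes, and the CPM values of the diets did not overlap for 5 (14.3%), against 17.5%. The median log2 fold change was 0.03 over the 35 collagens and -0.002 over all genes tested, and 25 collagens lay within 0.3 of 0. All values of CPM below are after TMM scaling and all fold changes are high fat over control.

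The filter asked for about 0.411 CPM in at least 4 libraries, and 8 collagens missed it: Col2a1, Col9a1, Col9a2, Col9a3, Col11a1, Col17a1, Col22a1 and Col28a1, with 0 to 19 counts per library. Col2a1, Col9a1, Col9a2, Col9a3 and Col11a1 are best known from cartilage. Col11a1 had 1, 0, 0 and 0 counts in high fat libraries and 8, 2, 3 and 2 in control libraries, too few for a test. Col11a2 and Col8a2 passed the filter in all 4 libraries of 1 diet only. Emid2, an older symbol of Col26a1 that the rule did not take in, had 2.24 ± 0.243 CPM on the high fat diet and 2.29 ± 0.309 CPM on the control diet (SD, n = 4 each; adjusted p = 0.88 in edgeR).

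**Figure D2:**
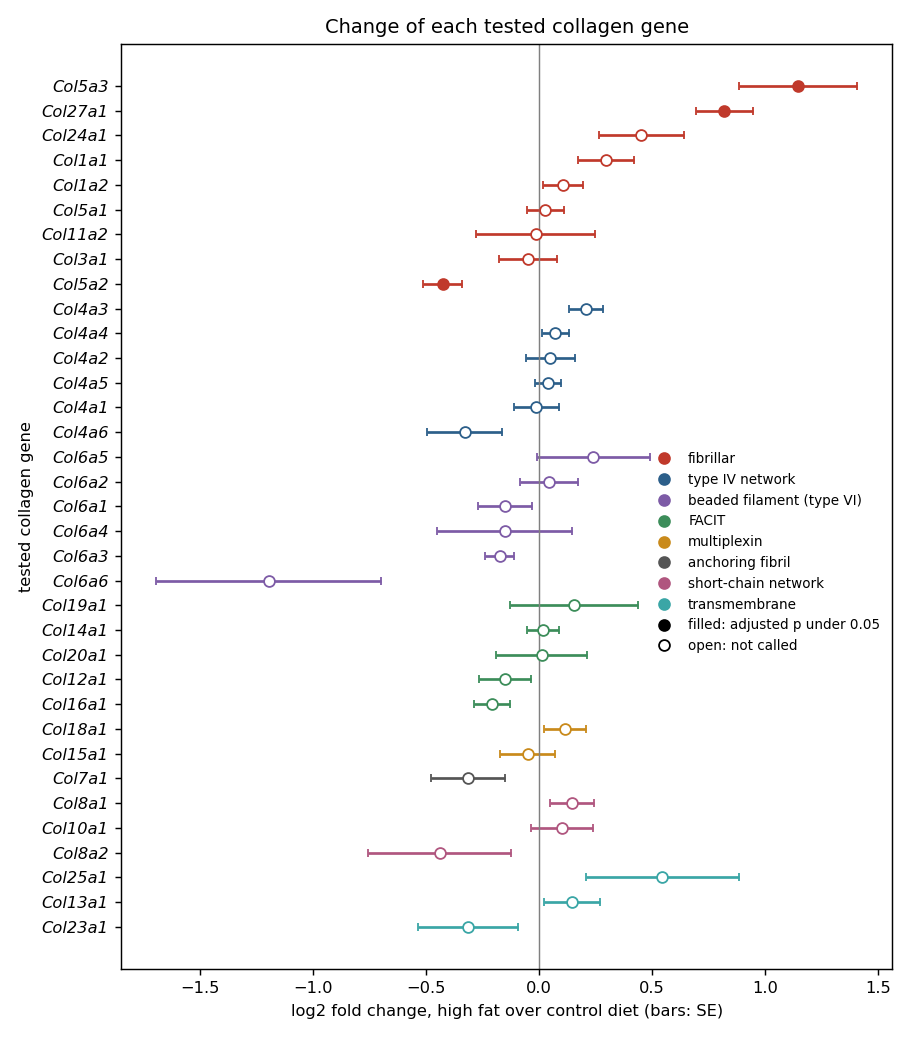
Log2 fold change, high fat over control diet, of the 35 tested collagen genes with its standard error, grouped and coloured by class; filled points have an adjusted p under 0.05. The 3 filled points are Col5a3, Col27a1 and Col5a2, all fibrillar, and the 6 type IV genes lie between -0.33 and 0.21.

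In the fibrillar class, 2 of 9 tested genes rose, 1 fell and 6 did not pass, with a median log2 fold change of 0.11 and a range from -0.43 to 1.15. Col27a1 encodes a fibrillar chain best known from cartilage and early skeletal development. It lies on chromosome 4 from 63214004 to 63334991 on the plus strand (GENCODE M21, GRCm38). Col27a1 had 139, 175, 162 and 169 CPM in high fat libraries A, B, F and G, against 83.5, 84.8, 120 and 76.4 CPM in control libraries I, J, L and M. All 4 high fat libraries lay above all 4 control libraries, of which control L came nearest. The means were 161 ± 15.6 CPM on the high fat diet and 91.1 ± 19.4 CPM on the control diet (SD, n = 4 each), a log2 fold change of 0.82 ± 0.13 (SE) with an adjusted p of 0.0044 in edgeR. The call held in all 8 fits without 1 library, with log2 fold changes of 0.74 to 0.98.

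The authors' deposited table by gene symbol lists 1133 genes and their table by Ensembl gene 1175, and each holds the same 2 collagens, Col27a1 and Col5a2. For Col27a1 the authors' deposited tables give folds of 1.77 and 1.78, high fat over control. In the authors' deposited table by Ensembl gene, Col27a1 has 20.5, 24.88, 26.58 and 26.88 FPKM in high fat libraries A, B, F and G, against 12.88, 11.25, 18.68 and 11.93 FPKM in control libraries I, J, L and M. These values, on the authors' own scale, again leave the diets without overlap.

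Col5a2 encodes the α2 chain of type V collagen, which nucleates fibrils together with the α1 chain from Col5a1. It lies on chromosome 1 from 45374321 to 45503282 on the minus strand. Col5a2 had 28.4, 30.8, 30.4 and 33.9 CPM in high fat libraries A, B, F and G, against 37.7, 44.9, 46.6 and 37.0 CPM in control libraries I, J, L and M. Every high fat library lay below every control library. The means were 30.9 ± 2.27 CPM on the high fat diet and 41.6 ± 4.90 CPM on the control diet (SD, n = 4 each), and Col5a2 fell by 0.43 ± 0.09 (SE) on the log2 scale with an adjusted p of 0.0147 in edgeR. The authors' deposited tables give folds of 0.743 and 0.745.

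Col5a3 encodes the α3 chain of type V collagen, which takes the place of other chains in some tissues. It lies on chromosome 9 from 20770050 to 20815067 on the minus strand. Col5a3 had 3.88, 2.56, 5.46 and 2.84 CPM in high fat libraries A, B, F and G, against 2.23, 1.32, 1.27 and 1.74 CPM in control libraries I, J, L and M. The diets did not overlap, with high fat F highest and high fat B only a little above control I. The means were 3.69 ± 1.31 CPM on the high fat diet and 1.64 ± 0.445 CPM on the control diet (SD, n = 4 each), a log2 fold change of 1.15 ± 0.26 (SE) with an adjusted p of 0.0212 in edgeR. These values rest on 17 to 133 counts per library. The call was lost without control J (adjusted p = 0.0570) and without control L (adjusted p = 0.0593), and in limma on FPKM.

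Of the type V genes, Col5a3 rose and Col5a2 fell, and Col5a1 did not pass. The α1 gene Col5a1 had 14.4 ± 1.17 CPM on the high fat diet and 14.1 ± 0.821 CPM on the control diet (SD, n = 4 each), a log2 fold change of 0.03 ± 0.08 (SE) that did not pass. The FPKM ratio of Col5a2 to Col5a1 was 2.73 ± 0.0962 on the high fat diet and 3.77 ± 0.551 on the control diet, and that of Col5a3 to Col5a1 was 0.356 ± 0.127 on the high fat diet and 0.161 ± 0.0461 on the control diet (SD, n = 4 each). These 2 ratios were chosen after their values were seen and carry no test, and neither overlapped between the diets.

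The classical interstitial pair and type III collagen did not pass. Col1a1 had 12.5, 9.93, 12.2 and 15.2 CPM in high fat libraries A, B, F and G, against 8.92, 11.3, 9.95 and 10.7 CPM in control libraries I, J, L and M. High fat A, F and G lay above all control libraries and high fat B did not. The log2 fold change of Col1a1 was 0.30 ± 0.13 (SE; unadjusted p under 0.05, adjusted p = 0.154 in edgeR).

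Col1a2 had 41.4, 35.1, 44.2 and 47.6 CPM in high fat libraries A, B, F and G, against 36.6, 37.7, 40.1 and 41.8 CPM in control libraries I, J, L and M. Col3a1, the type III chain of extensible tissue, had 32.7, 29.0, 38.7 and 41.1 CPM in high fat libraries A, B, F and G, against 33.7, 30.7, 36.5 and 44.9 CPM in control libraries I, J, L and M. Both genes overlapped between the diets, with log2 fold changes of 0.11 ± 0.09 for Col1a2 and -0.05 ± 0.13 for Col3a1 (SE). Col24a1, a relative of Col27a1, had 1.53, 1.35, 1.56 and 1.54 CPM in high fat libraries A, B, F and G, against 1.41, 1.17, 0.811 and 1.04 CPM in control libraries I, J, L and M. Its log2 fold change was 0.45 ± 0.19 (SE; adjusted p = 0.148 in edgeR), and control I lay above high fat B. Col11a2 had a mean of 0.640 CPM on the high fat diet and 0.662 CPM on the control diet.

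**Figure D3:**
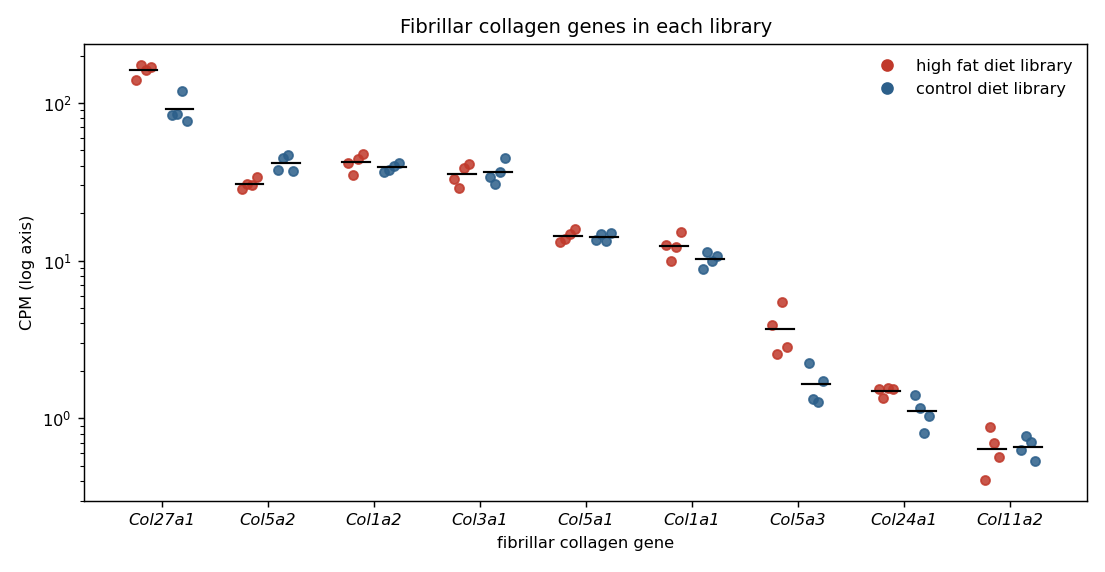
CPM (log axis) of the 9 tested fibrillar collagen genes, one point per library with the group mean as a line, high fat diet in red left of the control diet in blue. The diets separate for Col27a1, Col5a2 and Col5a3 and overlap for the other 6 genes.

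In the type IV network, 0 of 6 genes passed in edgeR, in DESeq2 or in limma-voom, and 1 had an unadjusted p under 0.05 in edgeR. The median log2 fold change was 0.05, with a range from -0.33 to 0.21. The gene with the unadjusted p under 0.05 was Col4a3, the α3 chain of the glomerular network, with 449, 409, 427 and 422 CPM in high fat libraries A, B, F and G, against 378, 357, 323 and 418 CPM in control libraries I, J, L and M. Control M lay above high fat B and the other 3 control libraries lay below all high fat libraries. The log2 fold change of Col4a3 was 0.21 ± 0.08 (SE) with an adjusted p of 0.101 in edgeR, and without control M it was 0.27 with an adjusted p of 0.0305.

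Col4a4, its partner chain, had 296, 295, 303 and 298 CPM in high fat libraries A, B, F and G, against 296, 295, 252 and 291 CPM in control libraries I, J, L and M. Control I, J and M lay close to the high fat libraries and control L stood below them. Col4a5, the third chain of that network, had 70.1, 64.9, 71.2 and 68.1 CPM in high fat libraries A, B, F and G, against 71.9, 63.6, 64.7 and 66.5 CPM in control libraries I, J, L and M. The log2 fold changes were 0.07 ± 0.06 for Col4a4 and 0.04 ± 0.06 for Col4a5 (SE), and neither passed.

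Neither chain of the common network passed. Col4a1 had 338, 295, 371 and 337 CPM in high fat libraries A, B, F and G, against 303, 351, 295 and 402 CPM in control libraries I, J, L and M. Col4a2 had 198, 182, 240 and 214 CPM in high fat libraries A, B, F and G, against 175, 226, 176 and 229 CPM in control libraries I, J, L and M. Both overlapped, with log2 fold changes of -0.01 ± 0.10 and 0.05 ± 0.11 (SE). Col4a6, which joins α5 chains in other basement membranes, was low, at 2.06 ± 0.404 CPM on the high fat diet and 2.58 ± 0.321 CPM on the control diet (SD, n = 4 each).

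The type IV genes lie in head-to-head pairs, each pair starting from a shared stretch of DNA in opposite directions. In GENCODE M21 the bounds of Col4a1 and Col4a2 on chromosome 8 overlap by 22 bases, those of Col4a3 and Col4a4 on chromosome 1 are 71 bases apart and those of Col4a5 and Col4a6 on chromosome X 1308 bases apart. The 71 bases between Col4a4 and Col4a3 (chr1:82586850-82586920, plus strand, RefSeq, GRCm38.p6) are shown because the genes of the α3 and α4 chains start on either side of them.
Col4a4 to Col4a3: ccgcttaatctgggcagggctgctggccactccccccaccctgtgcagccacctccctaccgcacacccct
This stretch was 69.0% G or C and held none of the 3 motifs.

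FPKM ratios within pairs varied little from library to library for 2 of the 3 pairs. Col4a1 over Col4a2 was 1.57 ± 0.0686 on the high fat diet and 1.63 ± 0.0875 on the control diet (SD, n = 4 each), between 1.4996 and 1.7076 in all 8 libraries. Col4a3 over Col4a4 was 1.297 ± 0.0515 on the high fat diet and 1.18 ± 0.0859 on the control diet, and its values overlapped between the diets. Col4a5 over Col4a6 was 35.2 ± 7.23 on the high fat diet and 26.8 ± 2.38 on the control diet, so the 2 genes of this pair stood far apart in level. Within type I, Col1a1 over Col1a2 was 0.323 ± 0.0217 on the high fat diet and 0.286 ± 0.0280 on the control diet, also with overlap. No test was made on these ratios.

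The contrast of fibrillar with type IV collagen depended on how the genes were combined. Summed over the class, fibrillar genes had 273, 298, 310 and 327 CPM in high fat libraries A, B, F and G, against 219, 227, 269 and 229 CPM in control libraries I, J, L and M. The sums did not overlap. Without Col27a1 they were 134, 123, 148 and 159 CPM in high fat libraries A, B, F and G, against 135, 143, 149 and 153 CPM in control libraries I, J, L and M, and overlapped. Col27a1 made up 50.9% to 58.6% of fibrillar CPM in high fat libraries and 33.3% to 44.5% in control libraries. Summed type IV CPM was 1339 ± 68.6 on the high fat diet and 1261 ± 124 on the control diet (SD, n = 4 each), with overlap.

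The log2 ratio of summed fibrillar to summed type IV CPM was -2.31, -2.07, -2.19 and -2.04 in high fat libraries A, B, F and G, against -2.49, -2.51, -2.05 and -2.62 in control libraries I, J, L and M. Control L lay among the high fat libraries and the other 3 control libraries lay below them. The means were -2.15 ± 0.13 on the high fat diet and -2.42 ± 0.25 on the control diet (SD, n = 4 each), a difference of 0.27 that was 0.39 without control L. Without Col27a1 the difference of the sums was -0.14, so the sign turned. A further value weighted every tested gene alike, as mean log2 CPM of 9 fibrillar minus that of 6 type IV genes, with 0.5 CPM added before the log. It was -3.02 ± 0.07 on the high fat diet and -3.22 ± 0.09 on the control diet (SD, n = 4 each), a difference of 0.20. That difference was 0.13 without Col27a1, so it kept its sign, and the diets overlapped both with and without the gene. Of the fibrillar genes left, the low-count Col5a3 had the largest log2 fold change, 1.15, at 3.69 CPM on the high fat diet and 1.64 CPM on the control diet. The difference without Col5a3 was not computed. As values over chosen genes, none of these ratios and differences carries a p.

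**Figure D4:**
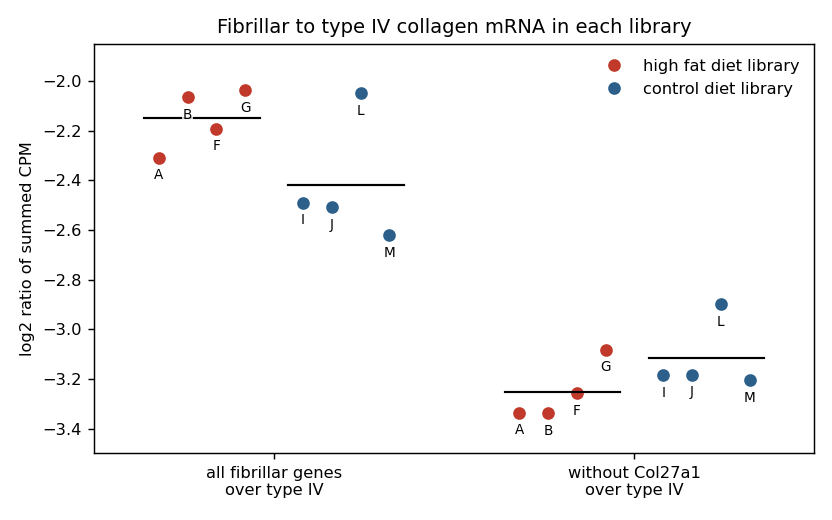
Log2 ratio of summed fibrillar to summed type IV CPM in each library, with all fibrillar genes (left) and without Col27a1 (right), high fat diet in red left of the control diet in blue, group means as lines and library letters below the points. With all genes the high fat mean is -2.15 and the control mean -2.42; without Col27a1 the high fat mean is -3.25 and the control mean -3.12.

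Type VI collagen, which forms beaded filaments between basement membrane and interstitium, had 0 of 6 genes called in edgeR, in DESeq2 or in limma-voom, and 2 with an unadjusted p under 0.05 in edgeR; its median log2 fold change was -0.15. Col6a3, the long α3 chain, had 41.8, 38.0, 42.3 and 45.5 CPM in high fat libraries A, B, F and G, against 45.7, 48.9, 48.5 and 46.1 CPM in control libraries I, J, L and M. The diets did not overlap, although high fat G and control I nearly met. Its log2 fold change was -0.17 ± 0.06 (SE; adjusted p = 0.102 in edgeR), and -0.24 with an adjusted p of 0.0198 once the trend of counts with gene length in each library was removed.

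Col6a1, an obligate chain of type VI, had 17.4, 18.1, 17.8 and 25.3 CPM in high fat libraries A, B, F and G, against 22.3, 23.6, 22.6 and 19.2 CPM in control libraries I, J, L and M. High fat G stood above all control libraries and the other 3 high fat libraries below them. The same library was highest for Col6a2, at 13.3 CPM against 9.86 to 10.2 CPM in the other 3 high fat libraries. The FPKM ratio of Col6a1 to Col6a2 was 1.69 ± 0.0808 on the high fat diet and 1.94 ± 0.200 on the control diet (SD, n = 4 each), with overlap.

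Col6a6, an alternative type VI chain, had 0.903, 1.31, 2.09 and 1.38 CPM in high fat libraries A, B, F and G, against 2.85, 2.65, 0.847 and 6.44 CPM in control libraries I, J, L and M. Control M was far above and control L was the lowest library of all. The log2 fold change was -1.19 ± 0.50 (SE; adjusted p = 0.148 in edgeR), -0.50 without control M and -1.54 with an adjusted p of 0.032 without control L. Col6a4 and Col6a5 stayed under 1.3 CPM in every library, and Col6a4, Col6a5 and Col6a6 lie side by side on chromosome 9.

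Among the FACIT genes, whose products coat fibrils, 0 of 5 tested passed in edgeR, in DESeq2 or in limma-voom, and 1 had an unadjusted p under 0.05 in edgeR. This was Col16a1, with 11.6, 9.98, 10.8 and 10.7 CPM in high fat libraries A, B, F and G, against 12.4, 13.5, 11.9 and 12.2 CPM in control libraries I, J, L and M. All high fat libraries lay below all control libraries, with a log2 fold change of -0.21 ± 0.08 (SE; adjusted p = 0.116 in edgeR). Col14a1, the most abundant FACIT gene, had 69.0, 66.3, 75.3 and 76.0 CPM in high fat libraries A, B, F and G, against 68.0, 71.9, 78.6 and 64.7 CPM in control libraries I, J, L and M, with overlap. Col19a1 varied most among 21 collagens that averaged 5 CPM or more, with a coefficient of variation of 24.2% on the high fat diet and 45.6% on the control diet, against medians over the 21 of 9.66% on the high fat diet and 9.97% on the control diet.

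The remaining basement membrane collagens did not pass either. Col18a1 had 134, 130, 155 and 156 CPM in high fat libraries A, B, F and G, against 118, 154, 122 and 139 CPM in control libraries I, J, L and M, a log2 fold change of 0.12 ± 0.09 (SE) with overlap. Col15a1, the other multiplexin, had a log2 fold change of -0.05 ± 0.12 and Col7a1, the anchoring fibril chain, one of -0.31 ± 0.16 (SE). In edgeR 0 of 2 multiplexin, 0 of 1 anchoring fibril, 0 of 3 tested short-chain and 0 of 3 tested transmembrane genes were called. None of them had an unadjusted p under 0.05, and DESeq2 and limma-voom called none.

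Some values move with gene length and with single libraries. All 35 tested collagens were longer than the median gene tested and 32 lay in the longest 3 of 10 equal bins of length, where median log2 fold changes over all genes were 0.02 to 0.06, against -0.07 in the shortest bin. With the length trend of each library removed, the median was 0.07 for fibrillar and -0.0009 for type IV genes. The order of these classes turned in DESeq2, run without the filter on low counts, with medians of 0.0345 for fibrillar and 0.0486 for type IV genes. It also turned in edgeR without that filter, at 0.0223 for fibrillar and 0.0382 for type IV genes. The fibrillar medians of both fits took in Col2a1 and Col11a1, which the filter left out. With the filter, the order held in edgeR with DESeq2 size factors, at 0.1119 for fibrillar and 0.0512 for type IV genes. In limma-voom it also held, at 0.0975 for fibrillar and 0.0467 for type IV genes. Summed markers overlapped between the diets for fibroblasts and pericytes (6 genes, 1 called), at 113 to 126 CPM on the high fat diet and 118 to 133 CPM on the control diet, for podocytes (6 genes, 0 called, 2 with an unadjusted p under 0.05 in edgeR), at 298 to 327 CPM on the high fat diet and 319 to 346 CPM on the control diet, and for smooth muscle (5 genes, 1 called), at 123 to 147 CPM on the high fat diet and 144 to 185 CPM on the control diet. No gene of these lists was at 0. The gene called on the fibroblast and pericyte list was Dpt, which rose by 0.87 on the log2 scale, whereas the median of its list was -0.098. Of the smooth muscle list, Acta2 fell by 0.39 ± 0.09 (SE) on the log2 scale (adjusted p = 0.0253 in edgeR; called in 4 of 8 fits without 1 library). Summed markers also overlapped for the thick limb (2 genes, 1 called), at 2629 to 3342 CPM on the high fat diet and 3269 to 3902 CPM on the control diet, and for the mesangium (3 genes, 1 called), at 70.2 to 83.1 CPM on the high fat diet and 74.8 to 84.0 CPM on the control diet. The thick limb transporter gene Slc12a1 fell by 0.53 ± 0.10 (SE; adjusted p = 0.0118 in edgeR; called in all 8 fits without 1 library) and the mesangial integrin gene Itga8 by 0.32 ± 0.09 (SE; adjusted p = 0.0446 in edgeR; called in 1 of 8). The other mesangial markers, Gata3 and Pdgfrb, had log2 fold changes of 0.05 ± 0.16 and 0.04 ± 0.08 (SE) and did not pass. Of 6 proximal tubule markers, Slc34a1 rose by 0.33 ± 0.09 (SE; adjusted p = 0.0495 in edgeR; called in 2 of 8) and Cubn fell by 0.26 ± 0.06 (SE; adjusted p = 0.0182 in edgeR; lost without high fat F). The part of these cell types in the collagen values was not tested.

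Genes that make, process, bind, break down or regulate collagen were read from 7 lists with 120 genes. In all, 108 were tested and 10 passed in edgeR (9.26%, against 9.99% of all genes tested). Of these, 6 rose and 4 fell, with a median log2 fold change of -0.006 over the 108. Leaving out high fat A, high fat G, control I or control J left 6 called, and DESeq2 called 13, adding P4ha2, Fn1 and Timp3.

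Among 19 tested genes of chain hydroxylation and folding, 0 rose, 2 fell and 17 did not pass. Serpinh1, the collagen chaperone HSP47, had 84.95, 88.4, 90.2 and 85.1 CPM in high fat libraries A, B, F and G, against 137, 149, 99.98 and 115 CPM in control libraries I, J, L and M. All high fat libraries lay below all control libraries and within 6 CPM of each other. Serpinh1 fell by 0.52 ± 0.11 (SE) on the log2 scale with an adjusted p of 0.0137 in edgeR, in all 8 fits without 1 library. P4ha1, a prolyl hydroxylase subunit, fell by 0.25 ± 0.07 (SE; adjusted p = 0.0422 in edgeR), a call that was lost whichever library was left out. Plod2, a lysyl hydroxylase, had a log2 fold change of -0.23 (adjusted p = 0.0785 in edgeR).

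Of 14 tested genes of procollagen processing and cross-linking, 1 rose. Pxdn, peroxidasin, which forms the sulfilimine cross-links of type IV collagen, had 61.4, 54.5, 81.8 and 67.5 CPM in high fat libraries A, B, F and G, against 35.7, 34.5, 31.7 and 42.1 CPM in control libraries I, J, L and M. The diets did not overlap. Pxdn rose by 0.88 ± 0.12 (SE) on the log2 scale with an adjusted p of 0.0028 in edgeR, in all 8 fits without 1 library. The lysyl oxidases Lox and Loxl2 did not pass, with log2 fold changes of 0.40 ± 0.22 and 0.02 ± 0.10 (SE).

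Of 11 tested genes of collagen breakdown and its inhibition, 0 passed in edgeR or limma-voom. In edgeR 1 had an unadjusted p under 0.05, the inhibitor gene Timp3, with a log2 fold change of 0.34 ± 0.12 (SE; adjusted p = 0.0872). DESeq2 called 1, also Timp3. Mmp2, gelatinase A, had a log2 fold change of 0.27 ± 0.13 (SE), and Timp1 was too low for a test, at 0.226 CPM on the high fat diet and 0.329 CPM on the control diet. Of 10 tested receptors, 0 passed in edgeR, in DESeq2 or in limma-voom and 3 had an unadjusted p under 0.05 in edgeR. Itga1, a subunit of an integrin that binds collagen, had a log2 fold change of -0.15 ± 0.05 and Ddr1, a collagen-binding tyrosine kinase, one of 0.05 ± 0.09 (SE).

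Among 20 basement membrane partners, 2 rose, 1 fell and 17 did not pass. Fras1, a protein of epithelial basement membranes, averaged 163 ± 21.4 CPM on the high fat diet and 114 ± 8.90 CPM on the control diet (SD, n = 4 each), a log2 fold change of 0.52 with an adjusted p of 0.0082 in edgeR. The laminin chain gene Lama3 rose by 0.29 (adjusted p = 0.0487 in edgeR; called in 2 of 8 fits without 1 library). Lama5 and Lamb2, chains of the glomerular laminin, had log2 fold changes of 0.31 ± 0.12 and -0.02 ± 0.08, Nid1 (nidogen) 0.08 ± 0.08 and Hspg2 (perlecan) 0.35 ± 0.16 (SE), none of which passed.

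Among 20 tested fibril partners and interstitial matrix genes, 2 rose and 18 did not pass. Tnxb, tenascin X, rose by 0.37 ± 0.08 (SE; adjusted p = 0.0166 in edgeR; lost without control I) and Dpt, dermatopontin, by 0.87 ± 0.21 (SE; adjusted p = 0.0305 in edgeR; called in 3 of 8 fits without 1 library), Dpt reaching a mean of only 1.799 CPM on the high fat diet against 0.984 CPM on the control diet. Fn1, fibronectin, had a log2 fold change of 0.41 ± 0.14 (SE; adjusted p = 0.0896 in edgeR; called in DESeq2) and Postn, periostin, one of -0.27 ± 0.23. Of 15 genes of profibrotic signals and their regulators, 1 rose, 1 fell and 13 did not pass. Tgfbr2, a TGF-β receptor subunit, rose by 0.37 ± 0.07 (SE; adjusted p = 0.0135 in edgeR; called in all 8 fits without 1 library). Cyr61 fell by 0.89 ± 0.23 (SE; adjusted p = 0.0328 in edgeR; called in 2 of 8). Its relative Ctgf had a log2 fold change of -0.34 ± 0.14 (SE; adjusted p = 0.135 in edgeR), and Tgfb1, the ligand of that receptor, one of 0.29 that did not pass.

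**Figure D5:**
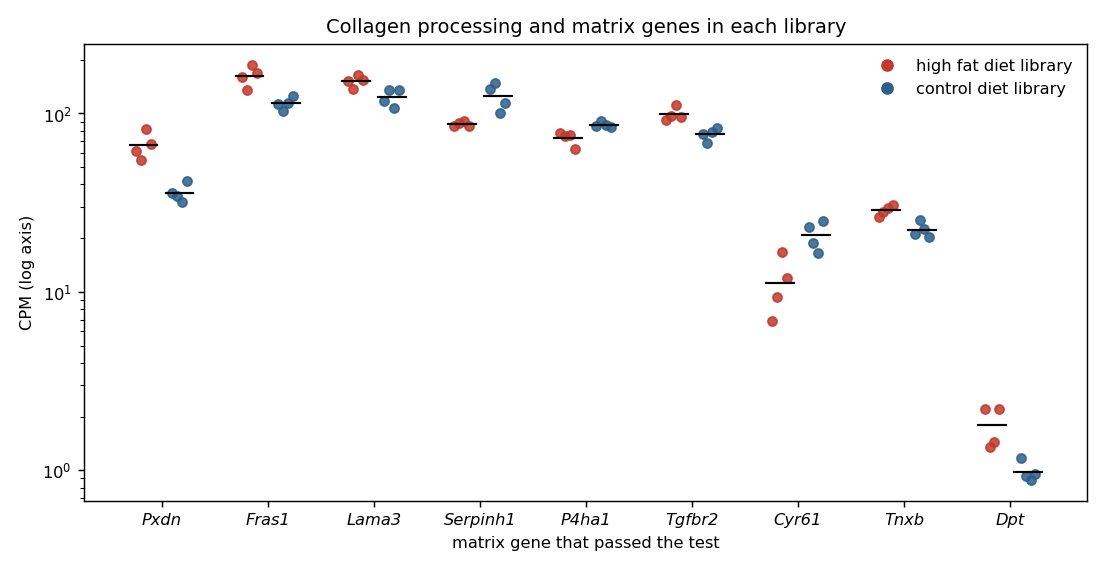
CPM (log axis) of 9 of the 10 genes of collagen processing and matrix that passed the test, one point per library with the group mean as a line, high fat diet in red left of the control diet in blue. Pxdn averages 66.3 CPM on the high fat diet and 36.0 CPM on the control diet, and Serpinh1 87.1 CPM on the high fat diet and 125 CPM on the control diet.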

How the data were processed

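Ribosomal RNA was depleted (Ribo-Zero Gold) during library construction, per the labels' protocols. Quantification used RSEM 1.2.9, with CASAVA 1.8.2 and the build mm10 also named, per the submitters' processing notes. The authors deposited RSEM expected counts (estimated counts) and FPKM per gene symbol, 1 column per library. A pair of the authors' deposited tables adds a fold (ratio) and a posterior probability, a score, for each gene they list. Neither the tool behind them nor the use of strand in counting is stated. The gene bounds of Col10a1 and Nt5dc1 and of Col18a1 and Slc19a1 overlap on opposite strands. So do those of Col4a1 and Col4a2 and of Col9a3 and Tcfl5. Without strand, reads from bases that the transcripts of both genes share cannot be told apart. Whether these transcripts share bases was not checked.

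Expected counts were rounded and tested, without Rn45s, by the quasi-likelihood F test of edgeR 4.0.16 (R 4.3.3) after TMM scaling and filterByExpr, with diet as sole term. The test was tried on simulated data before use. FPKM without Rn45s were rescaled to 1000000 per library. Alternatives used DESeq2 1.42.0 and limma 3.58.1, on log2(FPKM + 0.1) and log2(FPKM + 1) where a gene averaged 0.5 or more. Standard errors are the log2 fold change over the square root of F. Library letters differ between the diets, so nothing pairs them.

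Named are all collagens that were called, had an unadjusted p under 0.05 or were among the 12 highest in FPKM, the others as counts or ranges, in each list at most 4 called genes taken by smallest p, and a fixed set of matrix genes. The members, classes and lists were chosen with earlier results of these data known. A few further genes and ratios were named after their values were seen. Promoter motifs were searched in RefSeq sequence, and gene bounds are those of GENCODE M21. The result of 1 matrix gene that the rule names is not reported here.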

Additional observations from a re-analysis of the deposited data

Results flagged for a closer look

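Values in the 4 libraries of a diet were checked for 1 library whose gap to the next was large against the whole range (Dixon's 95% criterion). Of 82 groups of 4, 7 met it, and chance gives about 1 in 20. High fat G stood above the other high fat libraries for 3 type VI genes: Col6a1 at 25.3 CPM, the others being 17.4 to 18.1 CPM; Col6a2 at 13.3 CPM, the others being 9.86 to 10.2 CPM; and Col6a5 at 1.22 CPM, the others being 0.722 to 0.780 CPM. High fat B was highest for Col10a1, at 4.62 CPM with the others at 3.61 to 3.74 CPM, and lowest for Col24a1, at 1.35 CPM with the others at 1.53 to 1.56 CPM. Control L was lowest for Col4a4, at 252 CPM with the others at 291 to 296 CPM, and control M was lowest for Col25a1, at 0.316 CPM with the others at 0.459 to 0.469 CPM.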

How the results depend on the processing

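Collagens called stayed between 2 and 4 in every alternative, Col27a1 and Col5a2 among them each time. Col5a3 was lost in limma on log2(FPKM + 0.1) and log2(FPKM + 1) and without control J or L, and was not tested at a mean of at least 5 CPM. Without control L, Col6a6 was called in its place. All genes called numbered 1469, but 1811 in DESeq2, 1536 with the length trend removed, 812 and 825 in these limma fits, and with 1 library left out from 739 (high fat F removed) to 1528 (control M removed); 795, 801, 908 and 934 were called without control I, control J, high fat G and high fat A. Matrix genes called numbered 10, but 13 in DESeq2, 4 in each limma fit on FPKM and 6 to 11 with 1 library left out. The fibrillar to type IV difference was 0.20 to 0.39 with 1 library left out, and -0.14 (CPM) or -0.11 (FPKM) without Col27a1. As a mean of log2 CPM it was 0.20, and 0.13 without Col27a1. The alternatives without Col27a1 were added after seeing the data. Values near 0 changed sign: Col4a1 to 0.0113 and 0.0112 in limma on FPKM and between -0.0714 and 0.0841 with 1 library left out, Col14a1 to -0.0299 and Col4a5 to -0.0063 with the length trend removed, and, with 1 library left out, Col14a1 (-0.0248 to 0.0731), Col3a1 (-0.129 to 0.0695) and Col4a2 (-0.0241 to 0.118). The type IV median was -0.0009 with the length trend removed. The causes were not tested. No paired analysis was possible because the diets share no replicate letters. At 0 to 19 counts, 8 collagens were too low to test.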
